A study of Mus with 48 samples.

Results

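The genes described here are those for the proteins of the cytosolic ribosome, followed through 4 mouse brain regions and 3 treatment groups. Members were chosen by name alone, as every Rpl, Rplp, Rps or Rpsa symbol in the table without the Rps6k kinases and without names that mark a pseudogene, which gave 86 of 23339 gene names. Of these, 52 were Rpl or Rplp genes of the large subunit and 34 were Rps genes or Rpsa of the small subunit. One name that fits the rule, Rps19bp1, encodes a protein that binds the small-subunit protein S19 and is not itself part of the ribosome.

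A ribosome carries nearly all of these proteins as single copies, apart from the stalk proteins Rplp1 and Rplp2, which join Rplp0 in several. Their mRNAs are short, abundant and begin with a pyrimidine tract through which the mTOR kinase and the protein Larp1 set their translation. In neurons, ribosomal protein mRNAs are also carried into axons and dendrites, and their levels in whole tissue are commonly read as a measure of the capacity to make protein.

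RNA was sequenced from micro-dissected cerebellum, cortex, substantia nigra (SN) and striatum of 12 mice, which gave 48 libraries. All mice were female C57BL/6J, aged 8 weeks when bought, and 4 were given saline. The other 8 received MPTP, a toxin whose metabolite is taken up by dopaminergic neurons, as 10 subcutaneous doses of 25 mg/kg together with probenecid, and are a toxin model of Parkinson's disease. Of those, 4 stayed untrained (MPTP) and 4 then ran on a treadmill for 12 weeks, 5 days a week and 40 min a day, at up to 15 m/min (MPTP+EX). No group ran without MPTP, so running was compared only among mice that had received the toxin. Values are FPKM, fragment counts scaled to transcript length and library size, so levels of different genes can be compared per unit of length. The read depth of each library is unknown.

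The regions carried their own markers. The summed FPKM of 8 markers of medium spiny neurons was 2808 to 4295 in striatum and at most 369.9 elsewhere, and that of markers of cerebellar neurons was at least 2765 in cerebellum and at most 604.4 elsewhere. Markers of neocortical neurons summed to 1733 to 1933 in cortex and at most 881 elsewhere. Markers of dopaminergic neurons summed to 210.1 to 1510 in SN and at most 111.8 in the other regions. The striatum library of mouse E29, an MPTP+EX mouse, stood apart: its FPKM values summed to 619797, against 343661 to 402521 in the other 47 libraries, and it is shown by itself below. Unless stated, all comparisons use the other 47.

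Among the 86 genes, 82 had a mean above 1 FPKM over the 47 libraries and entered the tests. Most were highly expressed: 18 averaged above 300 FPKM, 53 between 100 and 300, 3 between 50 and 100, and 8 between 1 and 50. The highest means were 792.2 FPKM for Rplp1, 589.5 FPKM for Rpl41, which encodes a very short basic peptide of the large subunit, and 576.7 FPKM for Rps21. The lowest above the limit were 15.2 FPKM for Rps4y2, listed in RefSeq as a synonym of the transcribed pseudogene Rps4l, 17.5 FPKM for Rpl7l1, a nucleolar relative of Rpl7, and 20.3 FPKM for Rpl34. Members with the highest levels were largely shared between regions, since 7 genes (Rpl13, Rpl13a, Rpl41, Rplp1, Rps14, Rps15 and Rps21) were among the 10 highest in each of the 4 regions.

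The 4 genes below the limit were Rpl10l, Rpl39l, Rpl3l and Rpl26. Rpl10l and Rpl39l, copies known mainly from testis, reached at most 0.0618 and 0.331 FPKM in any of the 47 libraries, while their parents Rpl10 and Rpl39 averaged 242.0 and 204.7 FPKM. Rpl3l, known from muscle, reached at most 1.22 FPKM, while Rpl3 averaged 291.2 FPKM. These paralogs were therefore at or near 0 in each brain region. Other paralogs were clearly present. Rpl22l1 averaged 90.2 FPKM and its parent Rpl22 41.8 FPKM, Rpl36al averaged 123.2 FPKM and Rpl36a 144.7 FPKM, and Rps27l, which p53 can induce, averaged 23.7 FPKM. Rps4x averaged 169.5 FPKM.

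For 3 genes, most of the signal was assigned to a near-identical copy. Copies were examined for these 3 genes only, and not for Rps15a, which averaged 25.1 FPKM. Rpl26 averaged 0.379 FPKM, but Gm15772, a transcribed pseudogene for which RefSeq gives Rpl26 as a synonym, brought the sum of both to 308.6 FPKM. Rpl34 averaged 20.3 FPKM and, summed with Rpl34-ps1, 309.3 FPKM. Rps27 averaged 42.6 FPKM and, summed with Gm9846, which RefSeq calls Rps27rt, 516.6 FPKM. The values of Rpl26, Rpl34 and Rps27 under their own names are therefore uncertain, because reads of such copies may have been split between them.

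Rps27 and its copy also changed places between libraries. In 44 of the 47 libraries Rps27 stood at 3.86 to 10.8 FPKM, with a median of 6.56, and Gm9846 at 274.8 to 791.0 FPKM. In the remaining 3 the values were exchanged. Rps27 was 534.1 FPKM and Gm9846 19.8 FPKM in the cortex of saline mouse S3, 506.6 and 16.5 FPKM in the cortex of MPTP+EX mouse E28, and 661.3 and 22.1 FPKM in the SN of MPTP mouse M16. The 3 libraries came from 3 treatment groups, and other libraries of the same mice did not show the exchange. The sums in these 3 libraries were 553.9, 523.2 and 683.5 FPKM, within the range of their regions. Over the whole table, Rps27 was the only gene more than 1 log2 unit higher in all 3 than in each of the other 44, and Gm9846 the only gene lower by as much. In the tests between regions Rps27 had a standard error of 0.61 to 0.63 log2 units, against 0.02 to 0.09 for the other 81 members, and none of its fold changes passed (adjusted p 0.066 to 0.82).

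**Figure D1:**
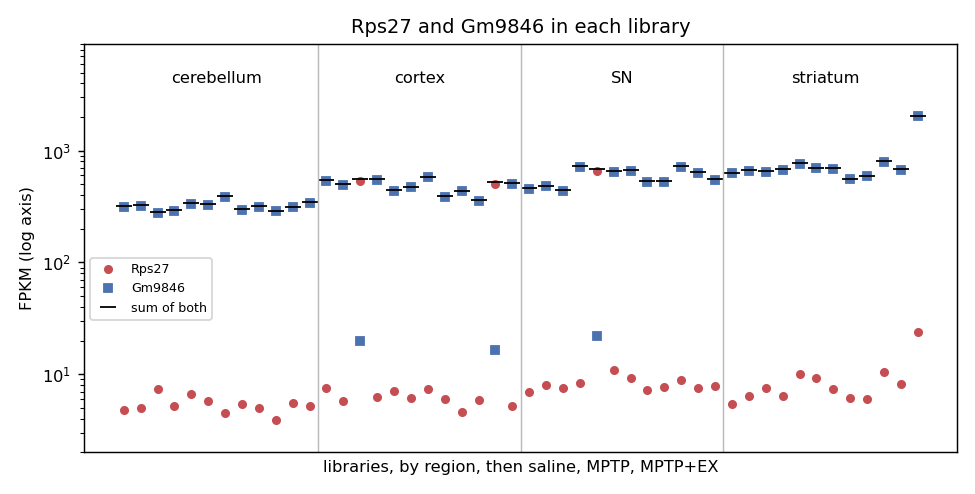
FPKM of Rps27 (circles), Gm9846 (squares) and their sum (dashes) in each of 48 libraries on a log axis, ordered by region and treatment. In 44 of 47 libraries Rps27 lies at 3.86 to 10.8 FPKM below Gm9846, in 3 the values are exchanged, and the sum changes by region; the last striatum library is that of mouse E29.

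Ribosomal protein genes differed between regions, with cerebellum the lowest. The mean of log2(FPKM + 1) over the 82 genes was 7.15 ± 0.058 in cerebellum (SD, n = 12), 7.41 ± 0.105 in cortex (n = 12), 7.80 ± 0.104 in SN (n = 12) and 7.68 ± 0.089 in striatum (n = 11). This mean includes Rps27, whose exchange raises it in the cortex of S3 and E28 and the SN of M16. Over the 48 large-subunit genes, which leave Rps27 out, means were 7.28 ± 0.060, 7.52 ± 0.091, 7.90 ± 0.098 and 7.78 ± 0.085 in the same order (SD). The ranges that follow are over the 82 genes. The cerebellum libraries, from 7.07 to 7.28, lay below every SN library (7.57 to 7.94) and every striatum library (7.55 to 7.81), and cortex (7.24 to 7.54) overlapped only the top of cerebellum. SN and striatum overlapped over most of their range. As a share of summed FPKM, the 86 genes made up 4.06% ± 0.137 in cerebellum, 4.93% ± 0.310 in cortex, 5.90% ± 0.358 in SN and 5.89% ± 0.328 in striatum (SD over the same libraries). With the copies Gm9846, Gm15772 and Rpl34-ps1 counted too, the shares were 4.28%, 5.19%, 6.22% and 6.25%.

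**Figure D2:**
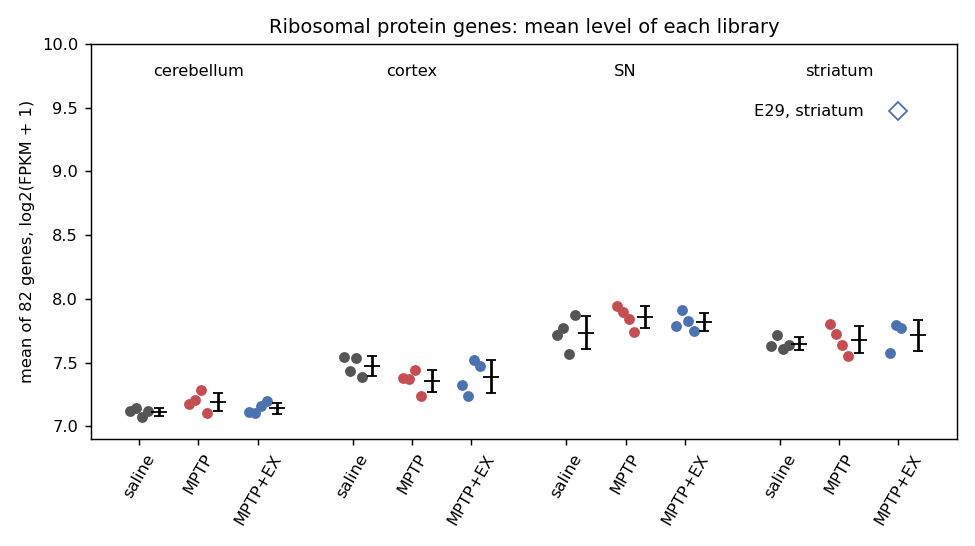
Mean of log2(FPKM + 1) over 82 ribosomal protein genes in each library, by region and treatment; bars beside the points give the mean and SD without E29. Cerebellum libraries lie between 7.07 and 7.28, SN libraries between 7.57 and 7.94, and the striatum library of E29 (open diamond) lies at 9.47. The mean includes Rps27, whose exchange raises the cortex libraries of S3 and E28 and the SN library of M16.

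The order of the regions was shared by most members. By region means, cerebellum was lowest for 72 of the 82 genes, and SN was highest for 62 and striatum for 18. The sequence cerebellum, cortex, striatum, SN from low to high held for 54 genes, and 17 more differed from it only in the order of SN and striatum. The exceptions included cortex as the lowest region for Rpl18, Rpl24, Rpl28, Rpl7, Rps15a, Rps27l, Rps4y2 and Rps9, SN for Rps19bp1 and striatum for Rpl7l1.

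The difference between cerebellum and SN was the widest. Of the 82 genes, 79 were lower in cerebellum at an adjusted p under 0.05 and none was higher, where 44.0% of all 13402 genes tested were lower. With a log2 fold change of at least 0.5 required as well, 66 were called lower, against 20.5% of all genes. The median log2 fold change was -0.64 over the members and -0.04 over all genes. Cerebellum was also lower than striatum for 76 members (33.9% of all genes), 43 of them by at least 0.5 (16.5%), with a median of -0.51 against 0.08. Against cortex, 62 members were lower in cerebellum (31.6%), 11 by at least 0.5 (15.6%), with a median of -0.23 against 0.12.

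Cortex lay below SN for 75 members (51.7% of all genes), 22 by at least 0.5 (20.0%), with a median of -0.40 over the members and -0.13 over all genes. The 22 became 4 to 6 under the other scalings and 6 in the saline libraries alone, where 14.6% to 16.9% of all genes passed. It lay below striatum for 75 members (37.4%), 5 by at least 0.5 (8.21%), with a median of -0.29 against -0.05. In the saline libraries alone, 33 members were lower (19.5%), with a median of -0.18. With the size limit, the main counts in cortex against SN, in cortex against striatum and in cerebellum against cortex were shares near the background. In cortex against SN and in cerebellum against cortex this depended on the setting. In cortex against SN, the 4 to 6 under the other scalings and in saline libraries were shares below the background. In cerebellum against cortex, the count was 24 in the saline libraries alone (15.5% of all genes) and 23 with a common median (19.5%), shares above the background. With quantile normalization it was 5 (16.6%), a share below it. SN and striatum differed least: 51 members were higher in SN (48.4% of all genes) and 9 lower (27.9%), only 1 by at least 0.5 (16.7%), with a median of 0.15 against 0.11. The share higher in SN was above the background and the share lower was below it, while the medians were close. In the saline libraries alone, 23 were higher (36.7%) and 6 lower (20.9%).

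**Figure D3:**
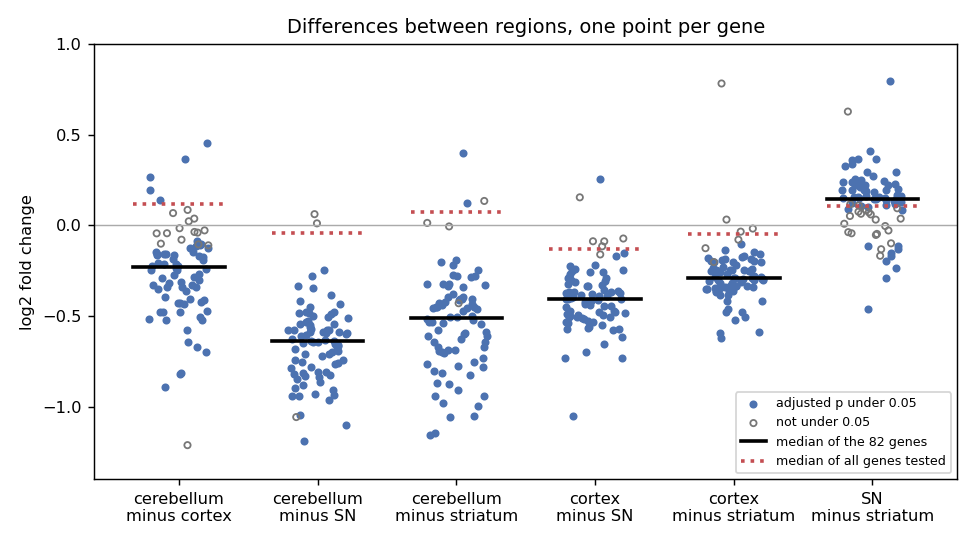
Log2 fold change of each of 82 ribosomal protein genes in 6 comparisons of regions; filled points have an adjusted p under 0.05, black bars are medians of the 82 genes and dotted bars medians of all genes tested. The member median is -0.64 for cerebellum minus SN and 0.15 for SN minus striatum; the open points farthest from 0 are Rps27.

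Values of single genes and libraries are given next as examples. Rplp1, Rps2, Rpl41, Rps12, Rpl31, Rps29 and Rps4y2 were among the members chosen as widest between regions in these same libraries. Any lack of overlap in these genes was favoured by that choice and is not a separate test of the region differences. How many of all members lacked overlap is not given here. Rplp1, a stalk protein that recruits elongation factors, ranged from 417.6 to 464.9 FPKM in the 12 cerebellum libraries (median 432.8), from 639.8 to 891.8 FPKM in cortex (791.2), from 804.3 to 1125 FPKM in SN (1040) and from 845.1 to 1133 FPKM in striatum (981.6). No cerebellum library reached any library of another region. The log2 fold change was -1.19 ± 0.05 (SE) for cerebellum against SN (limma, adjusted p = 9.7e-23), -0.82 ± 0.05 against cortex (adjusted p = 1.3e-17) and 0.03 ± 0.05 for SN against striatum (adjusted p = 0.60).

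Rps2, a protein near the mRNA entry of the small subunit, behaved alike. Its levels were 155.8 to 218.6 FPKM in cerebellum, 281.4 to 371.6 FPKM in cortex, 295.1 to 432.8 FPKM in SN and 368.4 to 453.7 FPKM in striatum. Cerebellum again did not overlap with any other region, and its log2 fold change against cortex was -0.89 ± 0.05. Rpl41 stood at 305.0 to 411.6 FPKM in cerebellum and at 490.4 to 805.1 FPKM in the other regions, a log2 fold change of -0.81 ± 0.06 against cortex. Between cortex and SN, Rpl41 had a fold change of -0.12 ± 0.06 that missed the threshold (adjusted p = 0.066). Rps21 rose from 367.3 ± 40.9 FPKM in cerebellum to 724.0 ± 80.8 FPKM in striatum (SD, n = 12 and 11).

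Rps12 had the same order of region means as Rplp1, but its cortex values were also separate from those of SN and striatum. It stood at 143.9 to 169.2 FPKM in cerebellum, 185.7 to 237.6 FPKM in cortex, 251.5 to 395.2 FPKM in SN and 255.4 to 337.2 FPKM in striatum. Cerebellum, cortex and the pair of SN and striatum thus formed 3 steps without overlap, and cortex was lower than SN, with a log2 fold change of -0.70 ± 0.05. Rpl31, of the large subunit near the exit of the peptide tunnel, stood at 172.5 ± 20.4 FPKM in cerebellum, 240.2 ± 31.4 FPKM in cortex, 315.0 ± 37.2 FPKM in SN and 346.9 ± 41.2 FPKM in striatum (SD), and SN and striatum did not differ beyond their spread (adjusted p = 0.085).

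Between SN and striatum, members moved in opposite directions. Rps29, a zinc-binding protein of the small subunit, was 229.8 to 444.1 FPKM in SN (median 354.6) and 369.9 to 527.5 FPKM in striatum (483.6), lower in SN with a log2 fold change of -0.46 ± 0.09 (adjusted p = 2.0e-05). Rps28 and Rpl38 were also lower in SN, with log2 fold changes of -0.23 ± 0.07 and -0.19 ± 0.07. Rps6, the substrate of S6 kinase whose phosphorylation is used as a readout of mTOR, was higher in SN, at 200.8 to 235.1 FPKM against 155.1 to 196.3 FPKM in striatum with no overlap, by 0.36 ± 0.04 log2 units. In cerebellum and cortex Rps6 did not differ beyond its spread (131.3 ± 7.24 and 134.0 ± 9.76 FPKM, SD). Rps15a was higher in SN than in striatum by 0.36 ± 0.04.

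Rps4y2 had the widest difference there, at 16.5 to 26.95 FPKM in SN and 10.2 to 15.8 FPKM in striatum, without overlap and by 0.80 ± 0.09 log2 units. Its parent Rps4x differed by 0.21 ± 0.04. Rps4y2 was also higher in SN than in cortex (cortex minus SN -1.05 ± 0.09), the largest shift of any member in that pair. Since Rps4y2 has an expressed parent of similar sequence, its own level is uncertain.

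A few members went against the main order of regions. Of those listed next, Rpl18 and Rps15a are not among the paralogs. The level of Rps27, the parent of Rps27l, is uncertain, as is that of Rps4y2. Of these, only Rpl7l1 is therefore set beside its parent. In cerebellum against cortex, 5 members were higher in cerebellum, where 49.8% of all genes were: Rps27l by 0.45 ± 0.09, Rpl7l1 by 0.37 ± 0.04, Rps4y2 by 0.27 ± 0.09, Rpl18 by 0.19 ± 0.05 and Rps15a by 0.14 ± 0.04. Rpl7l1 stood at 20.1 ± 1.40 FPKM in cerebellum, 15.4 ± 1.17 FPKM in cortex, 19.2 ± 1.16 FPKM in SN and 15.1 ± 1.14 FPKM in striatum (SD), while Rpl7 ranged over 132.4 to 176.6, 134.2 to 167.5, 183.3 to 263.6 and 167.2 to 209.2 FPKM in the same order. Rpl7l1 and Rps15a were the 2 members higher in cerebellum than in striatum (46.1% of all genes), and Rps19bp1 was the 1 member higher in cortex than in SN (27.1% of all genes), by 0.26 ± 0.06. Rpl22l1 had the direction of its parent: cerebellum minus SN was -0.58 ± 0.06 for Rpl22l1 and -0.34 ± 0.04 for Rpl22. It was -0.64 ± 0.06 for Rpl36al and -0.88 ± 0.06 for Rpl36a.

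Members of well-known roles were lower in cerebellum than in SN, each with an adjusted p under 0.05. Rplp0, the base of the stalk, differed by -0.42 ± 0.03 and Rplp2, the partner of Rplp1, by -0.53 ± 0.05. Rpsa, known also as a laminin receptor, differed by -0.96 ± 0.05 and Rps3, which lies at the mRNA entry and has a part in DNA repair, by -0.68 ± 0.04. Rpl5 and Rpl11, which bind Mdm2 when ribosome assembly fails, differed by -0.59 ± 0.04 and -0.66 ± 0.04. Rps27a, made as a fusion with ubiquitin, differed by -0.60 ± 0.05 and Rps14 by -0.76 ± 0.06. Between cerebellum and cortex, Rplp0, Rps6 and Rps27a differed by -0.02 ± 0.03, -0.03 ± 0.04 and -0.04 ± 0.05, and none passed the test. With quantile normalization Rplp0 and Rps6 turned to 0.096 and 0.080 there (adjusted p 0.011 and 0.029).

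Summing each of Rps27, Rpl26 and Rpl34 with its copy, an alternative chosen after the values were seen, gave these genes their lowest level in cerebellum too. The sum of Rps27 and Gm9846 was 321.2 ± 29.9 FPKM in cerebellum, 490.2 ± 68.9 FPKM in cortex, 592.2 ± 101.8 FPKM in SN and 676.1 ± 69.6 FPKM in striatum (SD). For Rpl26 and Gm15772 it was 243.6, 271.6, 389.3 and 331.7 FPKM, and for Rpl34 and Rpl34-ps1 240.6, 282.7, 378.3 and 338.0 FPKM in the same order of regions. In cerebellum against SN, 68 of the 83 members then tested were lower by at least 0.5, where 20.5% of all genes were.

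The region result depends in part on how libraries are scaled. The median of all genes tested itself shifted by 0.12 log2 units between cerebellum and cortex and by -0.13 between cortex and SN. Relative to it, the members' median was -0.35 for cerebellum minus cortex, -0.60 for cerebellum minus SN, -0.59 for cerebellum minus striatum and -0.27 for cortex minus SN. SN exceeded striatum by 0.04 on this scale. The 51 members higher and 9 lower in SN than in striatum became 30 and 16 with a common sum (40.5% and 33.9% of all genes), 28 and 14 with a common sum of the other genes (40.5% and 33.9%), 38 and 13 with a common median (42.9% and 32.2%), and 27 and 20 with quantile normalization (41.7% and 33.8%). Except with a common median, the members' share higher in SN was then below that of all genes. With libraries rescaled to a common sum, 34 rather than 66 members passed the size limit in cerebellum against SN (15.1% of all genes), and with quantile normalization 22 (17.8%). Their median stayed negative, at -0.47 and -0.37.

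Markers of several cell types also differed between regions, and those of microglia had the order of the members. The 8 microglia markers summed to 64.4 to 94.9 FPKM in cerebellum, 165.2 to 236.0 FPKM in cortex, 219.0 to 529.3 FPKM in SN and 226.8 to 294.5 FPKM in striatum, and all 8 were lower in cerebellum than in each other region by at least 0.5. The 8 oligodendrocyte markers summed to 1775 to 2134 FPKM in cerebellum, 1542 to 2161 FPKM in cortex, 5191 to 9769 FPKM in SN and 3552 to 5220 FPKM in striatum, and the astrocyte markers to 526.2 to 602.7, 503.6 to 665.6, 507.7 to 1035 and 441.5 to 539.8 FPKM in that order. The ranges of cerebellum and cortex overlapped for oligodendrocyte markers, and the lowest astrocyte sum was in striatum. Their part in the differences of ribosomal protein genes was not tested. In bulk tissue, fewer cells of a type and less RNA per cell cannot be told apart.

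Related gene groups were compared in the same way. In cerebellum against SN, 44.0% of all genes were lower and 37.2% higher. Of 20 genes of translation elongation and other pyrimidine-tract mRNAs, 14 were lower and 2 higher in cerebellum than in SN, with a median of -0.27. Among these, the elongation factor Eef1a1 differed by -0.74 ± 0.04, Eef1b2 by -0.77 ± 0.04 and Tpt1 by -0.67 ± 0.04. The 2 higher were Eef1a2, by 0.32 ± 0.04, and Hnrnpa1, by 0.55 ± 0.05. Of 35 genes of ribosome assembly, 12 were lower and 13 higher, with a median of -0.02, and of 17 genes of the mTOR and Myc pathways 4 were lower and 9 higher, with a median of 0.18. These counts are for cerebellum against SN only. Against cortex, the elongation and pyrimidine-tract genes went both ways. Eef1a1, Eef1b2 and Tpt1 differed by -0.41, -0.23 and -0.19, and Eef1d, Hnrnpa1 and Npm1 by 0.51, 0.54 and 0.35. Against striatum the values were -0.89, -0.61, -0.38, 0.47, 0.29 and -0.03 in the same order.

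Proteins of the mitochondrial ribosome, a separate machine, were counted too. Of 76 genes, 52 were lower and 5 higher in cerebellum than in SN (median -0.23), where 44.0% and 37.2% of all genes were. Against cortex 11 were lower and 42 higher (31.6% and 49.8% of all genes, median 0.13), and against striatum 16 were lower and 28 higher (33.9% and 46.1%, median 0.04). The cytosolic members had medians of -0.64, -0.23 and -0.51 in these comparisons.

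Treatment was compared within each region to ask whether MPTP, or running after MPTP, shifted these genes. No member passed an adjusted p under 0.05 in any of the 12 comparisons (limma), and member medians lay between -0.10 and 0.10 log2 units. Background calls were few as well. In cerebellum, 0% of all genes were called for MPTP against saline, 0.0154% for MPTP+EX against MPTP and 0% for MPTP+EX against saline. In cortex the share was 0% in all 3 comparisons. In SN it was 0.638%, 0% and 1.02%, and in striatum 0.0227%, 0.0151% and 0.00756%, in the same order. The p-values measure the spread between the mice of these groups.

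**Figure D4:**
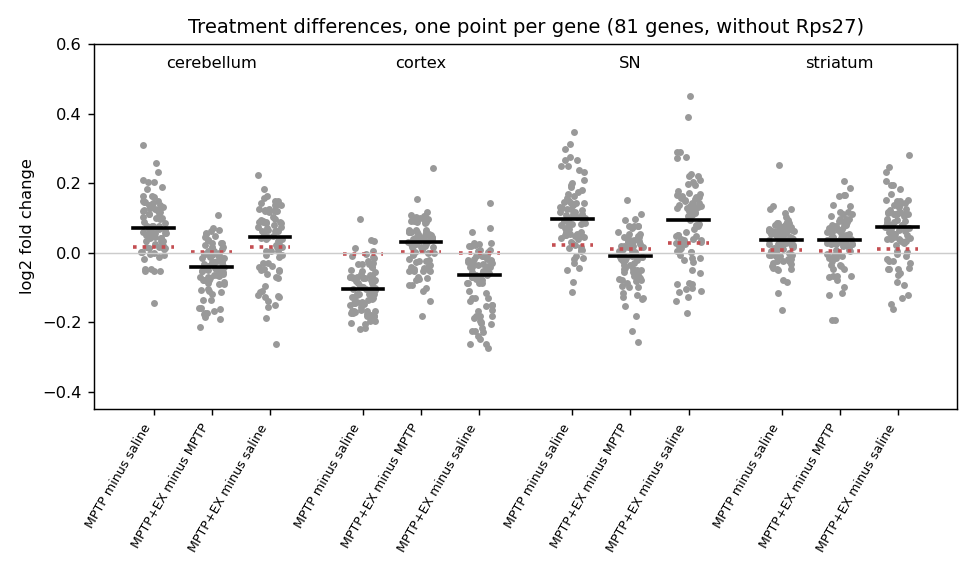
Log2 fold change of each of 81 ribosomal protein genes (without Rps27) in 12 treatment comparisons; black bars are medians of these genes and dotted bars medians of all genes tested. No gene had an adjusted p under 0.05, and the bars for MPTP minus saline lie above 0 in cerebellum and SN and below 0 in cortex.

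In cortex, 77 of 82 members had lower values after MPTP than after saline, with a median of -0.10 against -0.004 for all genes, but at an unadjusted p under 0.05 only 18 were lower and none higher, where 10.5% of all genes were lower. The mean level of all 82 genes was 7.48 ± 0.077 in saline, 7.36 ± 0.086 in MPTP and 7.39 ± 0.131 in MPTP+EX cortex (SD, n = 4 each), and the groups overlapped. Microglia and endothelium markers were also lower in MPTP cortex, at sums of 165.2 to 184.7 and 76.2 to 87.3 FPKM against 205.2 to 236.0 and 91.3 to 111.8 FPKM in saline. Sums overlapped for oligodendrocyte markers (1586 to 1780 in MPTP, 1711 to 2161 FPKM in saline) and astrocyte markers (506.2 to 532.0 and 503.6 to 665.6 FPKM). Those of neocortical neurons overlapped too (1782 to 1869 and 1755 to 1933 FPKM). Their part in the difference was not tested. For MPTP+EX against saline, 13 members were lower and 1 higher at an unadjusted p under 0.05, where 8.76% of all genes were lower. Rps25 led, at 296.3, 276.7, 275.3 and 287.6 FPKM in saline mice S1 to S4 and 232.9, 221.0, 237.9 and 255.2 FPKM in MPTP+EX mice E26 to E29, without overlap (-0.26 ± 0.08, adjusted p = 0.14).

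In cerebellum, 71 of 82 members had higher values after MPTP, with a median of 0.07 against 0.02 for all genes. The mean level of all 82 genes was 7.11 ± 0.031 in saline, 7.19 ± 0.074 in MPTP and 7.14 ± 0.044 in MPTP+EX cerebellum (SD, n = 4 each), and the groups overlapped. At an unadjusted p under 0.05, 22 members were higher and none lower, where 6.13% of all genes were higher. Rps13, a small-subunit protein at the interface between subunits, had the lowest p. It stood at 120.3, 105.2, 109.2 and 110.3 FPKM in saline mice, at 129.2, 140.2, 128.7 and 124.8 FPKM in MPTP mice M16, M21, M23 and M6 and at 123.7, 126.4, 135.7 and 134.3 FPKM in MPTP+EX mice. Each saline value lay below each value of the other groups. The log2 fold changes were 0.23 ± 0.05 for MPTP against saline (adjusted p = 0.22) and 0.22 ± 0.05 for MPTP+EX against saline (adjusted p = 0.15), and without saline mouse S1 the latter passed the threshold (0.26, adjusted p = 0.049). MPTP+EX against saline had 13 members higher and 1 lower at an unadjusted p under 0.05, where 9.78% of all genes were higher.

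In SN, the region that holds the neurons MPTP injures, 74 of 82 members had higher values after MPTP, with a median of 0.10 against 0.02 for all genes. The mean level of all 82 genes was 7.73 ± 0.129 in saline, 7.86 ± 0.085 in MPTP and 7.82 ± 0.072 in MPTP+EX SN (SD, n = 4 each). The groups overlapped, with saline from 7.57 (S3) to 7.87 (S4) and MPTP from 7.74 to 7.94. The value of 7.94 is that of M16, where the exchange of Rps27 raises the mean. Over the 48 large-subunit genes, which leave Rps27 out, the group means were 7.84 ± 0.128, 7.94 ± 0.068 and 7.92 ± 0.081 in that order (SD). Only 6 members were higher at an unadjusted p under 0.05 and none lower, where 5.69% of all genes were higher, a share near the background. Rpl7a was 200.5, 206.3, 202.6 and 213.7 FPKM in saline mice and 229.9, 223.9, 221.7 and 217.7 FPKM in MPTP mice, without overlap (0.12 ± 0.05, adjusted p = 0.38). For MPTP+EX against saline, 8 members were higher and none lower, where 8.97% of all genes were higher. Rps20 led, at 178.5, 202.8, 166.2 and 220.0 FPKM in saline and 233.1, 243.8, 247.0 and 211.0 FPKM in MPTP+EX, with overlap (0.29 ± 0.08, adjusted p = 0.12). Between MPTP+EX and MPTP the median was -0.01, and no member reached an unadjusted p under 0.05. Oligodendrocyte markers in SN summed to 5191 to 6599 FPKM in saline, 6150 to 8206 in MPTP and 6642 to 9769 in MPTP+EX, and astrocyte markers to 607.8 to 826.4, 757.0 to 1026 and 507.7 to 1035 FPKM. Dopaminergic markers summed to 713.1 to 1510, 241.0 to 309.4 and 210.1 to 331.9 FPKM, lower in each MPTP and MPTP+EX mouse than in each saline mouse. The part of these cell types was not tested.

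In striatum, without the library of E29, medians were 0.04 for MPTP against saline, 0.04 for MPTP+EX against MPTP and 0.07 for MPTP+EX against saline. The last had 8 members higher and none lower at an unadjusted p under 0.05, where 5.46% of all genes were higher. Rpl22, an RNA-binding protein of the large subunit, led that comparison. It stood at 39.97, 42.26, 40.03 and 38.91 FPKM in saline, 43.98, 40.20, 39.34 and 42.33 FPKM in MPTP, and 43.69, 46.06 and 50.19 FPKM in the 3 MPTP+EX mice. The log2 fold change against saline was 0.20 ± 0.06 (adjusted p = 0.32). Leading members of other comparisons were Rps18 in cortex, Rpl7l1 in cerebellum, Rpl31 in SN and Rps4y2 and Rpl22 in striatum, with adjusted p between 0.42 and 0.85.

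After MPTP, values of most members were lower in cortex and higher in SN, with none called in either region. Of the members, 0 passed the adjusted test of a difference in response between regions without a block. Members rose and fell together between libraries (below), so the counts that follow are not independent results. For cortex minus SN, the difference in the response to MPTP was below 0 in 80 of 82 members, with a median of -0.21 against -0.03 for all genes. At an unadjusted p under 0.05, 31 were below 0 and none above, where 8.54% of all genes were below. Rps18, a small-subunit protein near the decoding site, had the lowest p. It was 270.9, 246.2, 268.6 and 238.7 FPKM in saline cortex and 223.6, 225.5, 230.5 and 213.6 FPKM in MPTP cortex, but 253.2, 279.9, 205.5 and 292.9 FPKM in saline SN and 298.1, 300.6, 286.6 and 289.8 FPKM in MPTP SN. In cortex the MPTP values lay below each saline value, and in SN the groups overlapped. The difference was -0.40 ± 0.11 log2 units (adjusted p = 0.061). With the mouse as a block the adjusted p was 0.045, which made Rps18 the 1 member called. In that fit 1.63% of all genes were called, a larger share than 1 of 82 members. In the saline libraries alone, the members' median for cortex against SN was -0.28, against -0.40 averaged over treatments.

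Averaging each mouse over its regions after centring each region (E29 over 3 regions) gave 1 member past the threshold. Rpl19, of the large subunit, was higher in MPTP+EX than in saline by 0.14 ± 0.03 log2 units (adjusted p = 0.042), where 3.12% of all genes were called. Its centred values were -0.06, -0.05, -0.10 and -0.06 in saline mice S1 to S4, 0.01, 0.02, -0.04 and 0.04 in MPTP mice M16, M21, M23 and M6, and 0.04, 0.04, 0.13 and 0.07 in MPTP+EX mice E26 to E29. The saline mice lay below all others, and the highest MPTP mouse was level with the lowest MPTP+EX mice. The call was kept without M6 and lost when any other mouse was left out (adjusted p 0.051 to 0.12). It was also lost with a pseudocount of 0.1 (adjusted p = 0.052) and with a common median (adjusted p = 0.053), and with quantile normalization the adjusted p of Rpl19 was 0.058. In that comparison 15 members were higher and 1 lower at an unadjusted p under 0.05, where 14.2% of all genes were higher. No member passed for MPTP against saline (0.254% of all genes) or for MPTP+EX against MPTP (0.0149%). At an unadjusted p under 0.05, 2 members were higher for MPTP against saline, where 9.46% of all genes were, and 0 members passed for MPTP+EX against MPTP, where 8.63% of all genes did.

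Within a group, the members rose and fell together from library to library. After removing group means and leaving out Rps27, the first principal component carried 47.8% of the members' variance in cerebellum, 57.5% in cortex, 52.7% in SN and 63.7% in striatum. Over all genes it carried 24.5%, 18.6%, 26.9% and 23.9%, and over the mitochondrial ribosome 27.2%, 30.0%, 29.9% and 27.2%. Over oxidative phosphorylation genes it carried 41.9%, 41.4%, 39.1% and 60.8%, and over translation elongation and other pyrimidine-tract mRNAs 32.4%, 42.1%, 35.9% and 43.9%. Of the 81 members, 80 had the same sign on this component in cortex and in striatum, the exception being Rps4y2 in both, 79 in SN, where Rps4y2 and Rpsa differed, and 75 in cerebellum. MPTP mouse M6 was the lowest library on it in cerebellum and cortex, and MPTP mouse M23 the highest in both. The members are therefore not separate observations of a treatment. Counts of members above or below 0 do not stand for as many independent results.

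The striatum library of E29 carried far more ribosomal protein RNA than any other. Its mean level was 9.47, against 7.55 to 7.81 in the other 11 striatum libraries, and the 86 genes made up 14.6% of its summed FPKM, against 5.51% to 6.36%. All 82 members were higher there than in each of the 11 others. Against the mean of E26, E27 and E28, the fold on (FPKM + 1) had a median of 3.27 and ran from 1.32 to 7.30, and 73 of 82 members exceeded 2, while the median over all genes was 0.711 and 13.7% of genes exceeded 2.

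**Figure D5:**
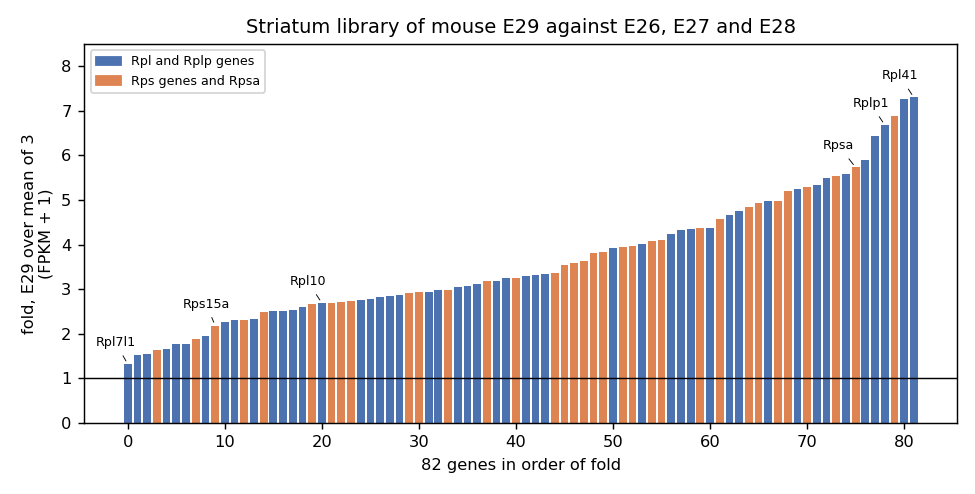
Fold of (FPKM + 1) in the striatum library of E29 over the mean of E26, E27 and E28 for each of 82 ribosomal protein genes, in order of fold. All bars lie above 1, from 1.32 for Rpl7l1 to 7.30 for Rpl41, and the median is 3.27.

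The excess was uneven. The largest folds were 7.30 for Rpl41 (5320 FPKM against a mean of 728.0), 7.27 for Rplp2 (2318 against 318.0), 6.87 for Rps15 (3809 against 553.2) and 6.68 for Rplp1 (6597 against 986.5). The smallest were 1.32 for Rpl7l1, 1.53 for Rpl4, 1.55 for Rpl34 and 1.64 for Rps7. Small-subunit genes had a median fold of 3.61 and large-subunit genes one of 3.09. Other groups moved as well, and oxidative phosphorylation had a median fold of 3.40, the mitochondrial ribosome 2.15 and 5 genes of red blood cells 6.28. Growth signalling genes had 0.475, astrocyte markers 0.360 and nuclear RNAs 0.514, and Malat1 stood at 17.5 FPKM against 148.4 to 312.4 FPKM in the other striatum libraries. The medium spiny markers summed to 4178 FPKM, within the range of the region, while microglia markers summed to 732.2 FPKM against 226.8 to 294.5, blood markers to 3722 FPKM against 169.1 to 2111, and choroid plexus markers to 8552 FPKM against 38.2 to 2526. The part of these in the library's excess was not tested. With the library included, the members' median in striatum became 0.47 for MPTP+EX against MPTP and 0.52 against saline, all 82 members lay above 0 in both, and no member passed an adjusted p under 0.05.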

How the data were processed

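Total RNA was sequenced from 4 regions of 12 mice. The authors deposited FPKM values for 23366 gene names in 48 columns, 1 a library. The paper's methods and the labels name different aligners and counters (the submitters' processing notes give HISAT2 2.1, HTSeq 0.11 and build mm9), and the sources used here do not state how reads that match several copies were assigned. Read depth is therefore unknown and no counting error is given. All columns were mapped to a group by their names, 0 were left over, and the mouse was read from the start of each name. Names turned into dates (27) were left out.

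Fits used limma 3.58.1 (R 4.3.3) with an intensity trend on log2(FPKM + 1), for genes with a mean above 1 FPKM in the libraries of the fit, with Benjamini-Hochberg adjustment over all genes tested. Fold changes on this scale understate those of low genes. Treatments were fitted per region over 3 groups. Regions were fitted over 47 libraries in 12 groups and averaged over treatments. The striatum library of E29 was left out of the main fits. Libraries of the same mouse are paired across regions by the column names; their consensus correlation was 0.074, and the mouse as a block was an alternative. The fits were tested on simulated data. RefSeq (GRCm38.p6) gave names only; 85 of 86 members matched by symbol and 1 by synonym. No sequence is shown.

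Genes named were the 3 highest and 3 lowest members, the member with the lowest p of each treatment comparison (1 is not reported here), the 8 widest between regions, 8 paralogs with their parents and 10 members of known roles. Others (Rpl19, Rps28, Rpl38, Rpl18, Rps15a, Rps19bp1, the copies, the related genes and the extremes in E29) were chosen after their values were seen. The members and lists were chosen with earlier results of these data known.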

Additional observations from a re-analysis of the deposited data

Results flagged for a closer look

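For the members' mean level and 17 single genes, 199 groups of 4 libraries were searched for a library far from the other 3 by Dixon's ratio of gap to range. The search found 15, or 7.54%. Its limit is set for about 1 in 20 in independent groups, but members varied together. The library of E29 had been set apart beforehand, and Rps27 was among the genes chosen as widest between regions. The share is therefore not a test against chance. The members' mean of log2(FPKM + 1) was 9.47 in the striatum library of E29, against 7.58 to 7.79 in its group.

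Rps27 accounted for 4 of the 15 found: 534.1 FPKM in the cortex of S3 (others 5.77 to 7.53), 506.6 FPKM in the cortex of E28 (4.58 to 5.90), 661.3 FPKM in the SN of M16 (7.28 to 10.8) and 7.40 FPKM in the cerebellum of S3 (4.78 to 5.17). In the first 3 the values of Rps27 and Gm9846 were exchanged.

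MPTP mouse M6 was low for Rpl31 in cortex (174.2 FPKM, others 251.7 to 267.2) and SN (259.7 FPKM, 350.3 to 362.6), for Rps25 in cortex (209.9 FPKM, 267.6 to 277.9) and for Rpl7l1 in SN (17.4 FPKM, 19.8 to 20.3). Rps4y2 was low in the SN of M23 (16.5 FPKM, others 25.6 to 26.2) and in the cerebellum of S1 (11.01 FPKM, 15.6 to 16.2). MPTP mouse M16 was low for Rpl7l1 in cortex (14.6 FPKM, 15.6 to 15.8) and Rps18 in cerebellum (172.1 FPKM, 192.8 to 196.4). Rps25 was high in the SN of E27 (408.2 FPKM, 290.7 to 300.4) and Rpl31 in the striatum of S2 (394.4 FPKM, 338.3 to 342.4).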

How the results depend on the processing

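No member was called in the 12 treatment comparisons under the other pseudocount, no filter, the other scalings or no trend. Leaving out each library in turn gave 0 to 1 called members for MPTP+EX against saline in cerebellum and in cortex (1 without saline mouse S1 and 1 without E29), and 0 in the others. With the striatum library of E29 the members' median in striatum was 0.47 for MPTP+EX against MPTP and 0.52 for MPTP+EX against saline. For mouse means, MPTP+EX against saline gave 0 called members with a pseudocount of 0.1 (0.977% of all genes) or a common median (2.80%). It gave 2 with quantile normalization (3.12%), and Rpl19 was not among them. When each mouse was left out, it gave 0 to 1. With the mouse as a replicate block, the region by treatment differences had 1 called member instead of 0. This was Rps18 in cortex minus SN, where 1.63% of all genes were called, a larger share than that of the members. No count between regions moved by over 1.5 times with the block.

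Between regions, with no limit on size (added after the data were seen), 67 members were called in cerebellum against cortex, 78 in cerebellum against striatum, 76 in cortex against SN, 75 in cortex against striatum and 60 in SN against striatum, higher and lower together. Of all genes, 81.4%, 80.0%, 78.8%, 63.9% and 76.3% were called, so that in cerebellum against cortex and in SN against striatum the members' share was near the background or below it. With the size limit, the main counts were 11, 43, 22, 5 and 1, and 66 in cerebellum against SN, with the shares of all genes given above.

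Shares in parentheses are of all genes lower by the same limits, and of all genes passing in either direction for SN against striatum. With a common sum, called members numbered 7 in cerebellum against cortex (14.8%), 34 in cerebellum against SN (15.1%) and 5 in cortex against SN (14.6%). There were 3 in cortex against striatum (7.45%) and 2 in SN against striatum (25.3%). Medians were -0.47 in cerebellum against SN and -0.28 in cortex against SN. With a common sum of the other genes these were 7, 40, 6, 3 and 2, with medians of -0.50 and -0.29. With a common median they were 23 in cerebellum against cortex, 6 in cortex against SN, 3 in cortex against striatum and 2 in SN against striatum, with medians of -0.36 in cerebellum against cortex and -0.30 in cortex against SN.

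With quantile normalization, called members numbered 5 in cerebellum against cortex (16.6%), 22 in cerebellum against SN (17.8%) and 22 in cerebellum against striatum (16.6%). There were 4 in cortex against SN (14.8%), 3 in cortex against striatum (7.28%) and 2 in SN against striatum (26.3%). Medians were -0.37 in cerebellum against SN, -0.36 in cerebellum against striatum, -0.27 in cortex against SN and 0.050 in SN against striatum. In cerebellum against cortex, Rplp0 turned to 0.096, Rps6 to 0.080 and Rpl11 to 0.014, and in cortex against SN Rps2 turned to 0.022.

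In saline libraries alone, 24 members were called in cerebellum against cortex (15.5% of all genes, members' median -0.33) and 6 in cortex against SN (16.9%, median -0.28). There was 1 in cortex against striatum (7.09%, median -0.18) and 2 in SN against striatum (25.5%). In the same cortex against SN comparison, Rps21 turned to 0.12, Rps18 to 0.000824 and Rpl39 to 0.019. With E29, the median was -0.66 in cerebellum against striatum, and 20 members were called in cortex against striatum (7.95% of all genes, members' median -0.43). In SN against striatum 2 were called (28.2% of all genes), and the median turned to -0.012. Rpsa and Rps14 turned to -0.063 and -0.030 in that pair. With copies summed, Rps27 turned to -0.27 in cortex against SN, -0.47 in cortex against striatum and -0.21 in SN against striatum. The cause of these changes was not tested, and unknown depth limits what can be said of low genes.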
